A study of Mus musculus with 4 samples.

Results

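Parathyroid hormone-related protein (PTHrP), its receptor and the factors through which they hold back hypertrophy were followed with 9 genes, Pthlh, Pth1r, Gnas, Sik3, Hdac4, Hdac5, Mef2a, Mef2c and Mef2d. These genes were taken by name from the 31053 genes of the count matrix, of which 22515 had a UMI (unique molecular identifier, the tag of 1 captured transcript), and all 9 were found there. The cells came from the proximal and distal tibia of 1 untreated male mouse at postnatal day 6 (P6). Its genotype was Col10a1Cre with the Rosa26-Tdtomato reporter, Irx3 +/Δ and Irx5 +/-, and it was labelled as a control heterozygous for the Irx genes. Irx5 +/- held in every cell. The study writes the Irx3 deletion as specific to hypertrophic chondrocytes, so 1 copy of Irx3 is removed by the same Cre that switches on the reporter, and HC origin and the lower Irx3 dose cannot be told apart. No cells without these alleles were used for comparison. Cre is expressed from Col10a1, the collagen X gene of hypertrophic chondrocytes (HCs), so the reporter marks HCs and their descendants. The cells of 2 tibiae were pooled into 1 library, which was sequenced as 4 entries and counted together. A single library has no replicate, so the comparisons carry neither a p-value nor a standard error. Levels are shares of the UMIs of a class. A lower share therefore cannot be told apart from a rise of other transcripts, and it does not give the number of transcripts per cell. Each interval is an exact 95% interval that covers counting error only.

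Chondrocytes at the end of the growth plate secrete PTHrP, which acts on PTH1R of chondrocytes nearer to hypertrophy. PTH1R signals mainly through the stimulatory G protein encoded by Gnas and through cyclic AMP. Protein kinase A then inhibits salt-inducible kinases, of which Sik3 encodes a member, and class IIa histone deacetylases such as HDAC4 and HDAC5 enter the nucleus and repress the MEF2 factors that drive hypertrophy. Osteoblasts and osteocytes use the same receptor to respond to parathyroid hormone.

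The matrix held 14181 barcodes and 158281984 UMIs. After filtering, 8255 cells remained with a median of 13957 UMIs. They formed 29 clusters that were named from marker lists, with the 9 genes left out of the clustering. A total of 3453 cells fell into 11 classes of the chondrocyte, osteoblast and fibroblast lineages, and the others were endothelial cells, pericytes, leukocytes, red blood cells and 1 cluster led by C1qa and Acp5, which held genes of both macrophages and osteoclasts. All names rest on rebuilt clusters and mean marker-like cells. The classes were 123 resting, 312 Ucma-rich, 764 maturing and 171 proliferating chondrocytes, 474 pre-hypertrophic chondrocytes (pre-HCs), 106 HCs, 272 osteo-progenitors rich in Cxcl12, 509 immature and 360 mature osteoblasts, 32 osteocytes and 330 periosteal or tendon fibroblasts. The Ucma-rich class was led by F3, Il11, Krt16, Rcan1 and Ucma, in this order. Fewer than 2 resting markers were among its leading genes, so it is called after Ucma. The name does not set it apart from the resting class, where Ucma was higher. Doublets were marked by Scrublet and kept, and made up 10.9% of the Ucma-rich and 14.6% of the proliferating class, against 0% of the resting class. A further 188 cells, of which 69.1% were marked as doublets, stayed unnamed. Levels are UMIs of a gene per 1000000 UMIs of a class (CPM). Since 3′ tags were counted without a length correction, levels are compared between classes and not between genes. Red blood cells, which are not a target of PTHrP, held 7.92 CPM of Pth1r and 0 UMIs of Pthlh. Their Pth1r level serves as 1 measure of free RNA in the droplets, from which other blood cells can differ.

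The stage anchors describe the classes and do not test them. Ihh and Col10a1 were open to the clustering and are in the marker lists that named pre-HCs and HCs. Ihh, the hedgehog ligand of pre-HCs, had 144 CPM in pre-HCs, 114 CPM in HCs and 12.0 CPM in maturing chondrocytes. Col10a1 stood at 11249 CPM in HCs, 758 CPM in pre-HCs and 19.3 CPM or less in the other chondrocyte classes. One of the 2 pre-HC clusters was led by Cdkn1c and Ihh (299 cells, 182 CPM of Ihh). The other (175 cells, 61.3 CPM of Ihh) had all 6 pre-HC markers at 10 CPM or more but none of them among its 10 leading genes, so values of both clusters are given where they part. The reporter sequence WPRE was above 14 UMIs, the limit for calling a cell HC-derived, in 84.0% of HCs, 3.16% of pre-HCs and 0% of leukocytes. The same share was 20.2% in osteo-progenitors, 20.4% in immature osteoblasts, 32.5% in mature osteoblasts and 34.4% in osteocytes. The limit is a raw count, and median depths in this order were 10009.5, 11786, 18943.5 and 17718.5 UMIs. The part of depth in these shares was not tested. The study set the limit to match the frequency of reporter-positive HCs that it had measured.

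Pthlh, which encodes PTHrP (ENSMUSG00000048776, GRCm38 chr6:147252101-147264183, minus strand, up to 4 exons), was counted only 204 times in all cells kept. The resting chondrocytes held 75 of these UMIs, or 55.8 CPM (43.9 to 70.0), in 42 of 123 cells. The leading genes of this class held the resting markers Sfrp5 and Ucma, and also Penk, Dlk1 and Prg4. The resting list was Sfrp5, Ucma, Gas1, Foxa2, Nt5e and Barx1, of which 4 reached 10 CPM in this class and the others did not. Where its cells lay in the tibia was not tested. The Ucma-rich class followed with 18 UMIs (3.06 CPM, 1.81 to 4.83), proliferating chondrocytes with 8 (1.60 CPM) and maturing chondrocytes with 12 (0.75 CPM). These intervals do not reach that of the resting class. Pre-HCs had 3 UMIs. HCs, osteo-progenitors, immature osteoblasts and osteocytes had 0, and mature osteoblasts 1. For 0 of 106 HCs the exact upper limit on the share of cells with a UMI was 3.42%, and that on the HC level 1.04 CPM.

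Cells other than chondrocytes also held the transcript. Fibroblasts carried 57 Pthlh UMIs, 27.9% of the total and 14.7 CPM (11.1 to 19.02), which was higher in the cluster led by Tnmd, a tendon gene (20.8 CPM, 178 cells), than in the cluster led by Aspn (7.71 CPM, 152 cells). Endothelial cells carried 23, and 18 of them lay in 1 cluster of 73 cells led by Eln and Gja4, arterial genes, at 24.8 CPM. Leukocytes held 2 UMIs among 2661 cells. After each cell was thinned to 5000 UMIs, Pthlh was found in 17.4% (11.1 to 25.3) of 121 resting chondrocytes, 6.79% of 324 fibroblasts and 0.08% of 2435 leukocytes.

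The resting level of Pthlh depended on where the class was drawn. With at most 5% mitochondrial UMIs it was 21.8 CPM. When up to 20% were allowed, the resting class grew to 635 cells and its Pthlh level was 10.1 CPM. With 3000 variable genes it held 752 cells at 8.01 CPM, and in both cases the fibroblasts had the highest level. Ucma, which marks the upper growth plate, was 5717 CPM in resting, 2988 CPM in Ucma-rich and 1476 CPM in maturing chondrocytes, against 55.8, 3.06 and 0.75 CPM for Pthlh. Over the 11 classes, the genes most like Pthlh by the Pearson correlation of log2(CPM + 1) were Reln (0.98), which encodes reelin, Tac1 (0.97), which encodes a tachykinin precursor, and Gm26945 (0.96). All 3 were highest in resting chondrocytes, at 13.4, 36.5 and 6.70 CPM. These are low levels, and the resting class itself changed between settings.

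Pth1r, the receptor of PTHrP and of parathyroid hormone (ENSMUSG00000032492, GRCm38 chr9:110722085-110747145, minus strand, up to 16 exons), was highest in pre-HCs. Its level was 122 CPM (104 to 142) in resting, 154 in Ucma-rich, 235 (227 to 242) in maturing and 195 in proliferating chondrocytes. It was 1188 CPM (1170 to 1206) in pre-HCs and 708 (681 to 737) in HCs. On the bone side it was 160 CPM in osteo-progenitors, 280 (267 to 292) in immature osteoblasts, 373 (360 to 387) in mature osteoblasts and 243 (205 to 287) in osteocytes.

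The receptor was thus lowest among chondrocytes in the resting class, highest in pre-HCs and lower again in HCs, with intermediate levels in the osteoblast classes. Neighbours in this order whose intervals overlapped were immature osteoblasts and osteocytes, osteocytes and maturing chondrocytes, osteo-progenitors and Ucma-rich chondrocytes, and resting chondrocytes and fibroblasts. All 11 classes stood above red blood cells, the lowest being fibroblasts at 99.1 CPM. Both pre-HC clusters were above every other class, with 1341 CPM in the Ihh-led cluster and 858 CPM in the other. Among single pre-HCs the quartiles of Pth1r were 475, 946 and 1620 CPM, against 59.2, 153 and 286 CPM in maturing chondrocytes. Cells thinned to 5000 UMIs had the transcript in 92.8% (90.1 to 94.97) of pre-HCs, 71.7% of HCs, 54.2% of maturing chondrocytes, 79.4% of mature osteoblasts and 3.88% of red blood cells. Before thinning the shares were 99.4% of pre-HCs, 95.3% of HCs, 84.4% of maturing chondrocytes, 99.2% of mature osteoblasts and 11.9% of red blood cells. Leukocytes held Pth1r in 6.45% of cells after thinning, more than red blood cells, and in 11.5% before it.

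Genes with the pattern most like Pth1r over the 11 classes were Atp1b3 (0.90), a subunit of the sodium pump, Vldlr (0.89), a lipoprotein receptor, and Dap (0.88). Their highest levels were 369 CPM in HCs, 113 CPM in HCs and 552 CPM in pre-HCs. The other ligand and the other receptor of the family were scarcely counted. Pth had 0 UMIs in all 11 classes, and Pth2r reached at most 0.17 CPM.

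**Figure D1:**
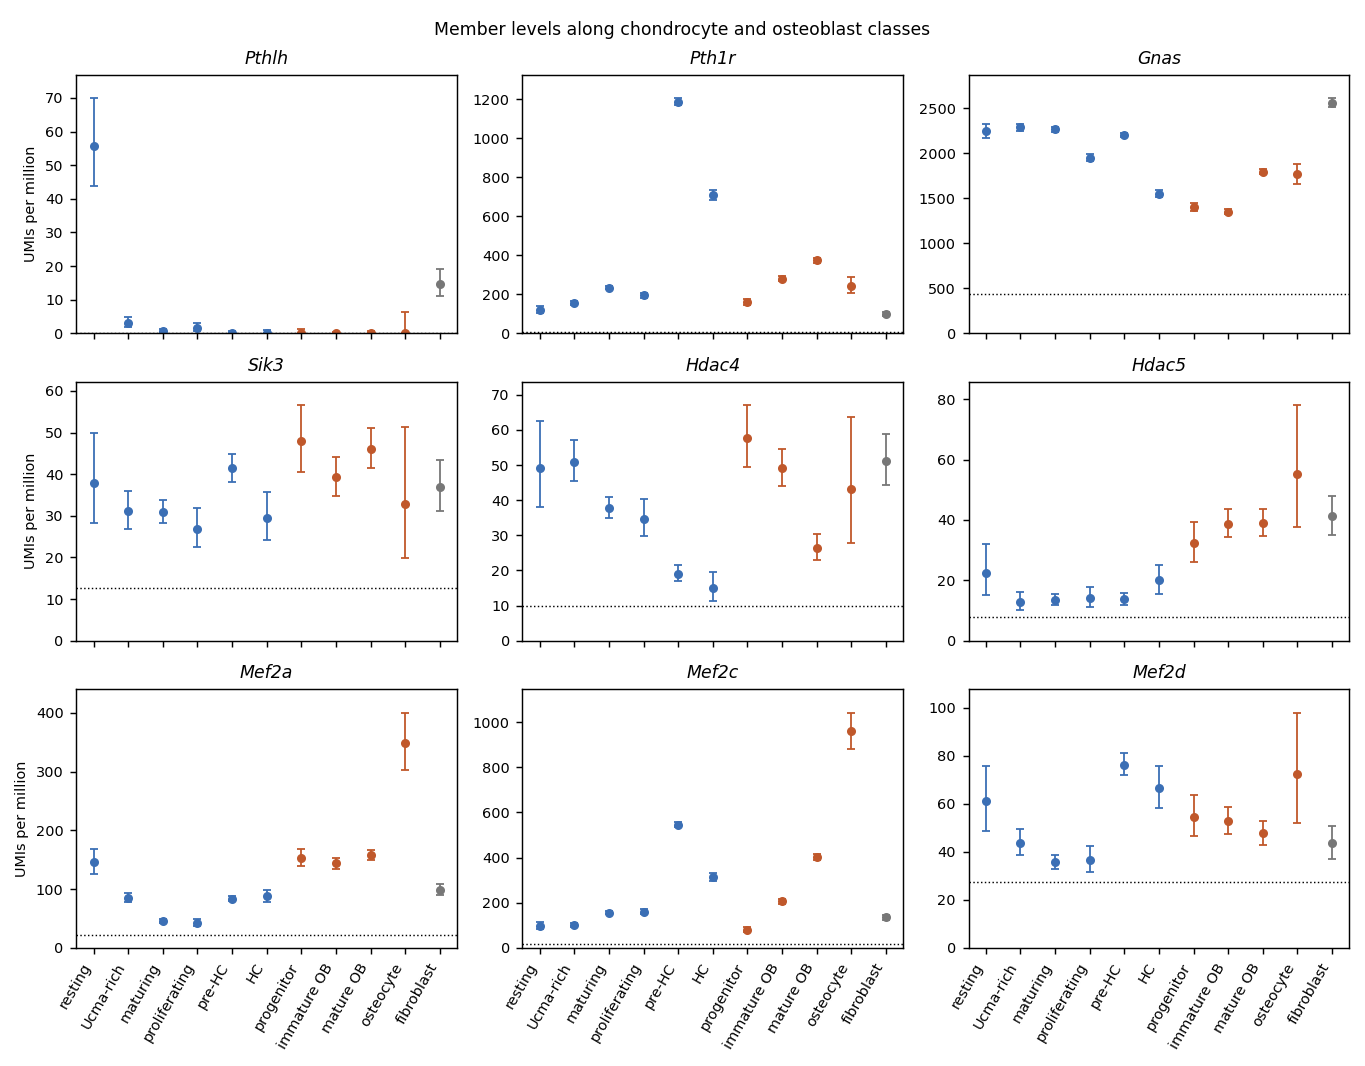
Level of each of the 9 genes (vertical axis, CPM, starting at 0) in 11 classes (horizontal axis; chondrocytes blue, osteoblast lineage orange, fibroblasts grey). Points are class levels with exact 95% Poisson intervals, and the dotted line is the level in red blood cells. Pthlh stands at 55.8 CPM in the resting class, Pth1r peaks at 1188 CPM in pre-HCs and Mef2c has peaks of 545 CPM in pre-HCs and 958 CPM in osteocytes.

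Pth1r and Mef2c, another member, had the largest ratios of pre-HCs to maturing chondrocytes among the 9 genes, and each has 3 start sites in the RefSeq windows of GRCm38.p6, in which all 9 genes were matched with 16 windows. The 3′ tags do not show which start was used. The 250 bases before each start are therefore given, 5′ to 3′ on the gene's strand, to show how the starts differ, with the motifs that were found in capitals.
Pth1r start 1, chr9:110747146-110747395 (minus strand): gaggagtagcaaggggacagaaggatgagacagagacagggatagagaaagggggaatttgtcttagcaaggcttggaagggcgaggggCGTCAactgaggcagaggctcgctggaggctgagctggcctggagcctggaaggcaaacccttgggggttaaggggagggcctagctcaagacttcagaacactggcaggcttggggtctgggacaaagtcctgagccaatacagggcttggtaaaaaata
Pth1r start 2, chr9:110743687-110743936 (minus strand): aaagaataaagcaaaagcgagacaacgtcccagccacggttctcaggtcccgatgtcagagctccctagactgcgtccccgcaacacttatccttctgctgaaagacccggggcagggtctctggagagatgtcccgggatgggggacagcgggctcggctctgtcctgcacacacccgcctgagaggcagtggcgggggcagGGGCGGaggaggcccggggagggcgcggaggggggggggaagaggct
Pth1r start 3, chr9:110742611-110742860 (minus strand): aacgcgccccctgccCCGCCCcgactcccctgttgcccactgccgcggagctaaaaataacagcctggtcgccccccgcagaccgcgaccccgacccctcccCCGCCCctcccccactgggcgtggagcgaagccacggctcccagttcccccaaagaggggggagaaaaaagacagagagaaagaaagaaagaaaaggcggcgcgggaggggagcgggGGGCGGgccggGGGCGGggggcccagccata
Mef2c start 1, chr13:83503784-83504033 (plus strand): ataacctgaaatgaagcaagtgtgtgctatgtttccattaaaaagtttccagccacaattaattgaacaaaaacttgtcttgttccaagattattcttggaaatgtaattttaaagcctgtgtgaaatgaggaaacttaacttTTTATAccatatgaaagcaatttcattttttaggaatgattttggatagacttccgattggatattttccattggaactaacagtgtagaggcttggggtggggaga
Mef2c start 2, chr13:83523406-83523655 (plus strand): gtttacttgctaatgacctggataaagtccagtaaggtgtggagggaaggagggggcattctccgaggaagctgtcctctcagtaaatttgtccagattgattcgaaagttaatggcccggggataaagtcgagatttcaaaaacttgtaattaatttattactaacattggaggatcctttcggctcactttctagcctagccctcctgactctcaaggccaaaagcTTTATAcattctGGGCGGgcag
Mef2c start 3, chr13:83573357-83573606 (plus strand): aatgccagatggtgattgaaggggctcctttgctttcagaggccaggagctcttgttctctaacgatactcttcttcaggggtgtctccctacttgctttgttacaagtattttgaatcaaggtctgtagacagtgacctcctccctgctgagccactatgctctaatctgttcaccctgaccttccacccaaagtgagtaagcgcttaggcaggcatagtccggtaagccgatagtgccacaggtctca

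The 6 motifs were searched on both strands of all 32851 windows, and their shares there give the background. GGGCGG, the GC box, was found in 32.7% of all windows. It occurred 0, 1 and 4 times before starts 1, 2 and 3 of Pth1r and 0, 1 and 0 times before those of Mef2c. TGACG, the core of a cyclic AMP response element, was found in 17.8% of windows, and among these 6 only before start 1 of Pth1r. The whole element TGACGTCA, which contains TGACG, was in 1.55% of windows and in none of the 16. TATAAA was in 12.4% of windows and before starts 1 and 2 of Mef2c. TGTGGT, the core bound by RUNX factors, was in 4614 of the windows. For MEF2 factors the search took CTA and TAG with any 4 bases between them, which was found in 3.20% of windows. The 4 middle bases were not restricted, so these matches may include sequences that are not a MEF2 core. Neither pattern was present before the starts of Pth1r or Mef2c. Among the 16 windows the MEF2 pattern was found only once, before the start of Hdac5. The share of G and C was 56.0%, 65.6% and 70.4% before the starts of Pth1r and 33.6%, 44.8% and 49.6% before those of Mef2c. These matches describe letters in a window and were not tested as binding sites.

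Gnas, which encodes the stimulatory G protein alpha subunit (GRCm38 chr2:174284320-174346744, plus strand), varied little. It was 1949 to 2286 CPM in the chondrocyte classes before hypertrophy, including 2200 CPM in pre-HCs, and 1549 CPM (1508 to 1590) in HCs. Osteo-progenitors had 1403, immature osteoblasts 1350, mature osteoblasts 1793 and osteocytes 1764 CPM, and fibroblasts had the highest level at 2561 CPM. The highest class was 1.90-fold (1.84 to 1.95) above the lowest. The locus has 24 annotated transcripts, some of which share their 3′ exons and encode other proteins, and the counts do not separate them. Thinned cells contained the transcript in 99.4% to 100% of cells in each of the 11 classes, and it was also found in 86.4% of red blood cells.

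Sik3, the salt-inducible kinase 3 gene (GRCm38 chr9:46012820-46224194, plus strand), ranged over the 11 classes from 26.8 CPM (22.5 to 31.8) in proliferating chondrocytes to 48.0 CPM (40.4 to 56.5) in osteo-progenitors. Each class overlapped its neighbour in the order of levels, so neighbours in the order are not resolved. Pre-HCs at 41.4 CPM (38.1 to 44.9) were above maturing chondrocytes at 30.9 CPM (28.3 to 33.8), a ratio of 1.34 (1.18 to 1.51). Among other cells Sik3 stood at 89.6 CPM in endothelial cells, 86.1 CPM in pericytes and 12.5 CPM in red blood cells.

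Hdac4, the class IIa histone deacetylase gene that is best known as a brake on hypertrophy (GRCm38 chr1:91928779-92195699, minus strand), was lower in pre-HCs and HCs than in the other chondrocyte classes. Its level was 49.1 CPM (38.0 to 62.5) in resting, 51.0 (45.4 to 57.1) in Ucma-rich, 37.8 (34.9 to 41.0) in maturing and 34.7 in proliferating chondrocytes. It was 19.1 CPM (16.9 to 21.5) in pre-HCs and 14.9 (11.2 to 19.5) in HCs, where it came near the 9.83 CPM (8.11 to 11.8) of red blood cells. It was 57.7 CPM (49.4 to 67.0) in osteo-progenitors, 49.2 in immature osteoblasts, 26.4 (22.9 to 30.3) in mature osteoblasts and 43.2 (27.9 to 63.7) in osteocytes.

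Pre-HCs and HCs were thus the lowest classes for Hdac4, and osteo-progenitors were 3.87-fold (2.83 to 5.38) above HCs. The values of pre-HCs and HCs overlapped, as did those of the resting, Ucma-rich, progenitor and immature osteoblast classes. Hdac5, another gene of this class (GRCm38 chr11:102194432-102230166, minus strand), did not share the pattern. It was 12.9 to 22.3 CPM in all 6 chondrocyte classes and 32.2 to 55.2 CPM in the 4 osteoblast-lineage classes. Hdac7, also of this class, was between 0.99 and 10.2 CPM in chondrocytes and 36.6 CPM in osteo-progenitors, and Hdac9 reached at most 8.63 CPM.

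Mef2c, the gene of a MEF2 factor required for hypertrophy (ENSMUSG00000005583, GRCm38 chr13:83504034-83667080, plus strand), had 2 peaks. Among chondrocytes it was 98.2 CPM (82.2 to 116) in resting, 100 in Ucma-rich, 155 (149 to 162) in maturing and 160 in proliferating cells, then 545 (533 to 558) in pre-HCs and 314 (296 to 333) in HCs. It was 81.5 CPM (71.6 to 92.5) in osteo-progenitors, 207 (196 to 218) in immature osteoblasts, 401 (387 to 416) in mature osteoblasts and 958 (880 to 1041) in osteocytes. The osteoblast-lineage values were ordered by stage with no overlap between them. Resting chondrocytes overlapped with the Ucma-rich class and with osteo-progenitors, and maturing with proliferating chondrocytes.

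After thinning, all 32 osteocytes (89.1% to 100%) held the transcript, against 77.5% of mature osteoblasts, 55.8% of immature osteoblasts, 81.8% of pre-HCs and 7.11% of red blood cells. Mef2c is not particular to this lineage, since endothelial cells had 404 CPM and leukocyte clusters 65.3 to 593 CPM. The genes most like Mef2c over the 11 classes were Nme2 (0.93), Rcor2 (0.92) and Cystm1 (0.90), all highest in osteocytes.

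Mef2a (GRCm38 chr7:67231163-67372858, minus strand) was 146 CPM (126 to 168) in resting chondrocytes, 46.1 (42.9 to 49.6) in maturing and 43.1 in proliferating chondrocytes, 83.8 in pre-HCs and 88.0 in HCs. It lay between 144 and 157.7 CPM in osteo-progenitors and both osteoblast classes, which overlapped, and was 349 (302 to 400) in osteocytes. Mef2d (GRCm38 chr3:88142372-88172086, plus strand) covered a narrow range from 35.9 CPM (33.0 to 38.9) in maturing chondrocytes to 76.4 CPM (71.9 to 81.1) in pre-HCs, and every class overlapped its neighbour. Its level in red blood cells was 27.3 CPM. The fourth gene of the family, Mef2b, reached at most 2.53 CPM.

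**Figure D2:**
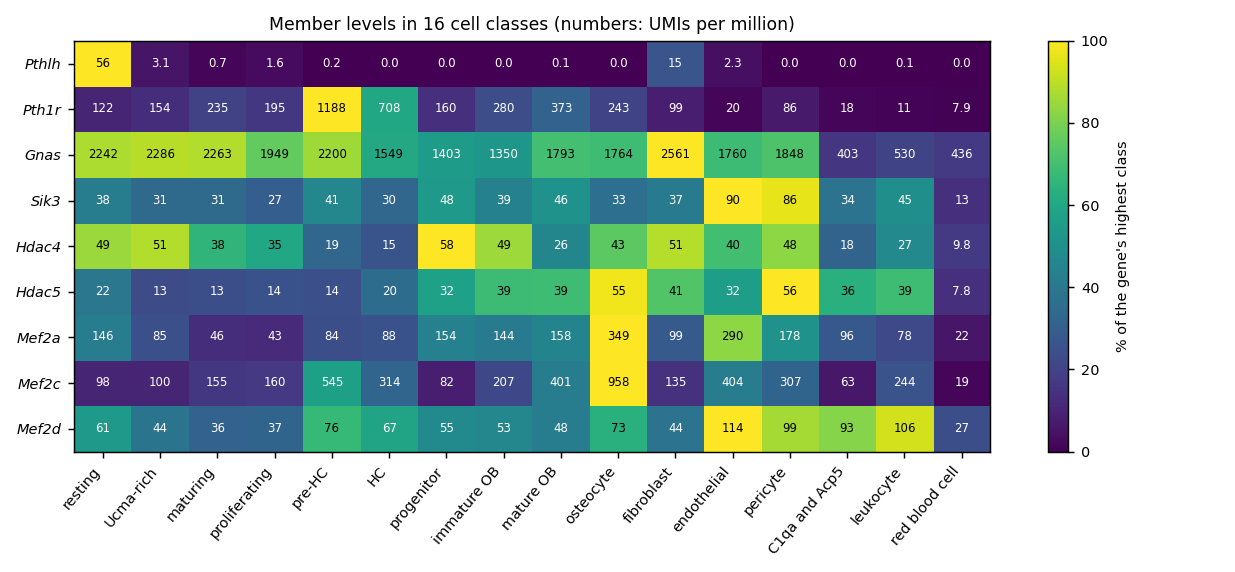
The 9 genes (rows) in 16 classes of cells (columns), with the level in CPM printed in each field and the colour giving the percent of the gene's highest class. Pthlh is highest in the resting class with 55.8 CPM, which held 75 of its 204 UMIs. Pth1r is highest in pre-HCs and HCs with 1188 and 708 CPM, whereas Gnas lies between 403 and 2561 CPM in all 16.

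The first comparison addressed entry into hypertrophy. A gene was counted as tested between classes if it had at least 10 CPM in either, and was called when its level differed at least 2-fold. No statistical test is meant by this. Of the 9 members 8 were compared in every pair, Pthlh being too low. Median depths per cell were 20399 UMIs in maturing chondrocytes, 28827 in pre-HCs, 33060 in HCs and 11786 in immature osteoblasts, and the part of depth in the ratios was not tested. From maturing chondrocytes to pre-HCs, 3 of the 8 were called higher, where 3.61% of the 6922 genes tested were called higher, and 0 were called lower, against 2.95%. Pth1r was 5.06-fold (4.88 to 5.24) higher, Mef2c 3.51-fold (3.36 to 3.67) and Mef2d 2.13-fold (1.92 to 2.36). The Mef2d call held in 6 of 10 alternatives only, and its log2 ratio was 0.97 with the mean of the cells' CPM, 0.996 with at least 2000 genes, 0.93 at clustering resolution 1.5 and 0.13 with only the pre-HC cluster that Ihh did not lead. Mef2a was 1.82-fold (1.66 to 1.99) higher. The Hdac4 ratio was 0.51 (0.44 to 0.58), which lies beside the limit and passed it in 4 of 10 alternatives. The ratios were 0.97 for Gnas and 1.02 (0.84 to 1.25) for Hdac5.

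In the Ihh-led cluster alone 5 members were called, since Hdac4 (log2 ratio -1.06) and Mef2a (1.08) then passed the limit. In the other cluster Mef2d had a log2 ratio of 0.13 and was not called. For each cluster alone the share of all genes called was not computed. With both clusters together, the median log2 ratio of the 8 members was 0.64, against 0.01 over all genes tested. Outside the members, 35 genes of the pathway lists were tested, and 0 were called higher and 1 lower. This was Prkar2b, a regulatory subunit of protein kinase A, with 19.02 CPM in maturing chondrocytes and 6.75 CPM in pre-HCs.

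Between pre-HCs and HCs no member was called in either direction, whereas 24.5% of the 8020 genes tested were called higher in HCs and 5.86% lower. Pth1r was 0.60 times (0.57 to 0.62) and Mef2c 0.58 times (0.54 to 0.61) as high in HCs as in pre-HCs. The median log2 ratio was -0.42 over the 8 members and 0.49 over all genes tested. The median of the members thus lay below the general shift in this pair of classes. Hdac5 (1.45, 1.09 to 1.91) was the member with the highest ratio, and its log2 ratio of 0.53 was above the median of all genes. Of 39 other pathway genes 8 were called higher and 4 lower. The 4 lower genes were named after their values were seen. Sox9, the chondrocyte transcription factor, went from 978 to 264 CPM, Gli3, a hedgehog repressor, from 37.1 to 14.9 CPM, and Zbtb20 from 680 to 333 CPM. These 3 come from 1 pathway list, of regulators of hypertrophy, and whether each of them holds hypertrophy back or favours it was not tested. Pde3a, a phosphodiesterase, was also lower, from 25.6 to 8.15 CPM. Higher in HCs were Slc9a3r1, a scaffold that binds PTH1R (3.70 to 13.8 CPM), Adcy3, an adenylyl cyclase (4.12 to 14.6 CPM), Crtc2, a coactivator of cyclic AMP response (6.11 to 14.3 CPM), Ptgs2, which encodes a prostaglandin synthase (14.6 to 308.9 CPM), and Tnfsf11, which encodes RANKL (8 and 60 UMIs, 0.57 to 16.9 CPM).

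The same cells were also ordered without their class. The 1950 cells of the 6 chondrocyte classes were divided by their own Col10a1 level, and these ranges are not cell types. From 1332 cells without Col10a1 to the range of 300 to 3000 CPM, Pth1r went from 361 CPM (354 to 368) to 469, 1123 and 1752 CPM (1702 to 1804), then to 1267 and, at 10000 CPM or more, 802 CPM (763 to 842). Mef2c followed the same order with 209, 266, 486, 766, 495 and 337 CPM. Both genes were therefore highest in the 85 cells of the range of 300 to 3000 CPM, of which 78.8% were pre-HCs and 17.6% HCs. Hdac4 was 35.6, 34.3, 29.4, 14.6, 16.3 and 9.66 CPM over the same ranges, and Ihh 30.4, 56.2, 138, 199, 165 and 164 CPM. Ihh thus stayed at 164 CPM in the cells with most Col10a1, where Pth1r and Mef2c were lower. A total of 56 cells lay within 10% of a limit between ranges.

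**Figure D3:**
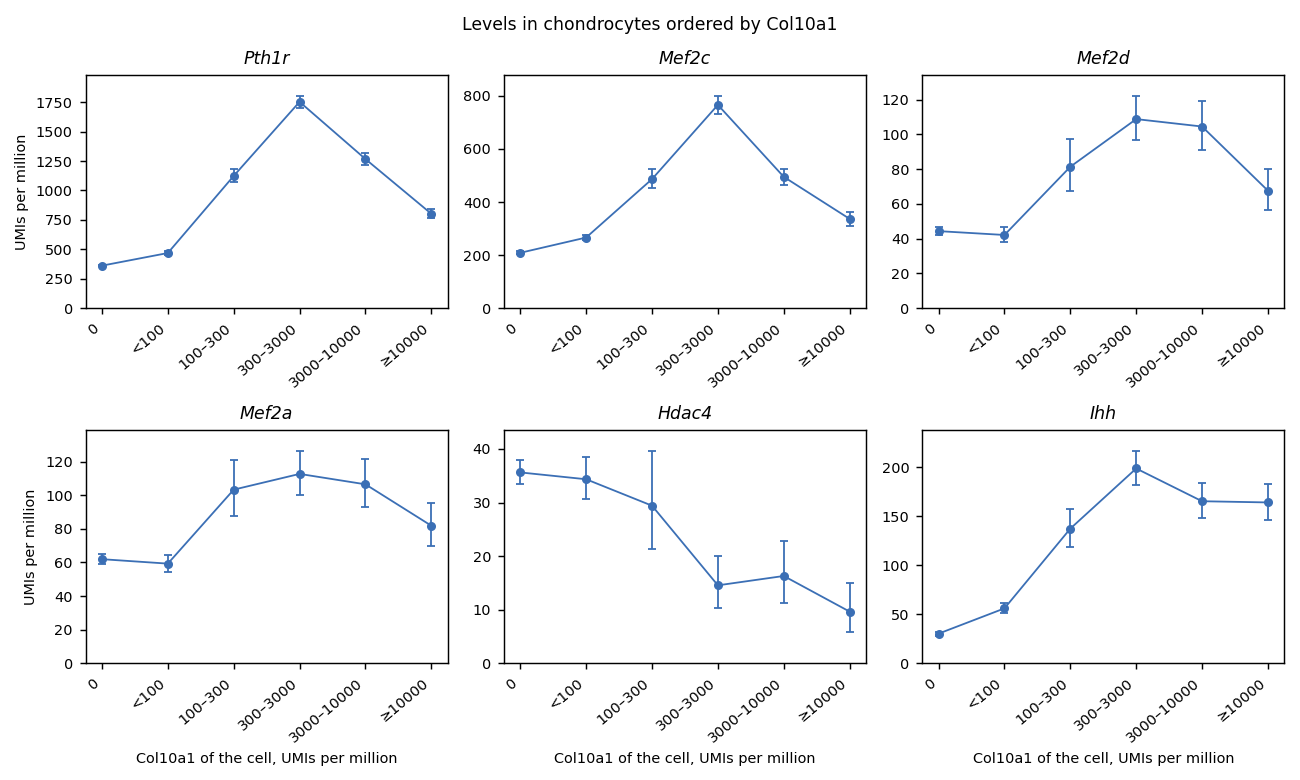
Levels of Pth1r, Mef2c, Mef2d, Mef2a, Hdac4 and Ihh (vertical axes, CPM, starting at 0) in chondrocytes sorted into 6 ranges of their own Col10a1 level (horizontal axis, CPM). Points are summed levels with exact 95% Poisson intervals. Pth1r and Mef2c peak at 1752 and 766 CPM in the range of 300 to 3000, while Hdac4 goes from 35.6 to 9.66 CPM.

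Single cells with both transcripts were counted after thinning. Pth1r and Mef2c were found together in 77.2% (73.1 to 80.9) of pre-HCs, where the product of both shares was 75.9%, and in 24.7% (21.6 to 27.9) of maturing chondrocytes, where the product was 20.9%. Pth1r with Ihh was found in 31.3% of pre-HCs, and 148 of the 150 pre-HCs with Ihh held Pth1r. Pthlh with Pth1r was found in 4 of 121 resting chondrocytes, or 3.31% (0.91 to 8.25), where the product was 6.31%. Without thinning, 27 of 123 resting chondrocytes held both, or 21.95% (14.99 to 30.3), where the product was 22.5%.

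Across the chondro-osseous junction, immature osteoblasts were compared with HCs. Here 1 member was called higher and 1 lower of 8, where 18.7% of the 9008 genes tested were called higher and 15.6% lower. Hdac4 was 3.30-fold (2.47 to 4.50) higher in immature osteoblasts, and Pth1r was 0.39 times (0.37 to 0.42) as high. Both calls held in the 8 alternatives that gave both classes. The Hdac5 ratio was 1.94 (1.49 to 2.56), that of Mef2a 1.63 (1.44 to 1.86) and that of Mef2c 0.66 (0.61 to 0.71). Mmp14, which encodes a membrane protease that the study examined together with PTH1R, went from 88.0 CPM in HCs to 625 CPM in immature osteoblasts. It was left out of the clustering but is in the marker list of immature osteoblasts, so its level there is not independent of the name.

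Of 54 other pathway genes 19 were called higher in immature osteoblasts and 6 lower, and their median log2 ratio was 0.65, against 0.06 over all genes tested. Hdac7 went from 3.94 to 20.9 CPM, Adcy9, an adenylyl cyclase, from 3.37 to 12.2 CPM, Grk6, a receptor kinase, from 13.8 to 34.6 CPM, and Gli3 from 14.9 to 47.9 CPM. Gnaq, a subunit of the other G protein used by PTH1R, went from 25.9 to 58.9 CPM and Pde7a, a phosphodiesterase, from 6.46 to 19.2 CPM. Zbtb20 was lower, from 333 to 101 CPM. Of the 62 other pathway genes with at least 10 CPM in a class, 23 had their highest level in osteo-progenitors, 8 each in osteocytes and fibroblasts, 6 in resting chondrocytes and 5 each in HCs and proliferating chondrocytes. The other 7 were spread over the remaining classes. The same count over all genes was not made, so these numbers do not show a trait of the pathway.

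In the step from immature to mature osteoblasts, no member was called, while 4.45% of the 8358 genes tested were called higher and 19.8% lower. Mef2c, with a ratio of 1.94 (1.82 to 2.07), lay just under the limit and was called in 9 of 10 alternatives. Of the 360 mature osteoblasts, 181 lay in sub-clusters led by genes of other cells, with 102 cells led by haemoglobin genes, 55 by endothelial and pericyte genes and 24 by cartilage and granulocyte genes. The 102 cells also had Ube2c, Birc5 and Cenpa, genes of dividing cells, among their leading genes, so dividing osteoblasts may be among them. Without the 181 cells Mef2c stood at 432 CPM and Pth1r at 380 CPM in the 179 cells left, and the log2 ratio of Mef2c was 1.06. The Hdac4 ratio was 0.54 (0.45 to 0.64), that of Pth1r 1.33 (1.26 to 1.41), and those of Hdac5 and Mef2a 1.01 (0.85 to 1.19) and 1.096 (1.01 to 1.19). The median over all genes tested was -0.48 on the log2 scale and that of the 8 members 0.18. Leaving the 20 most abundant genes of each class out of the totals moved every log2 ratio of this pair by 0.22, with which Mef2d changed its sign. For osteocytes over mature osteoblasts the same step moved ratios by 0.23, and Gnas changed its sign.

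Of 53 other pathway genes 14 were called lower in mature osteoblasts and 0 higher. In the list of genes that respond to cyclic AMP, which holds Areg and Tnfsf11, 3 of 10 tested were called lower. The median log2 ratio of that list was 0.02, against -0.48 over all genes tested, so the named genes do not stand for it. Areg, an epidermal growth factor receptor ligand that responds to cyclic AMP, went from 10.3 CPM to 2 UMIs (0.26 CPM), Tnfsf11 from 106 to 10.9 CPM, Plcb1 and Plcb3, phospholipases of the Gq arm, from 17.6 to 6.43 and from 18.4 to 8.01 CPM, and Arrb1, a beta-arrestin, from 11.5 to 4.99 CPM. Mmp14, a gene of the marker list for immature osteoblasts, was also lower, with 625 and 170 CPM, while Pth1r had 280 and 373 CPM.

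In osteocytes against mature osteoblasts 2 members were called higher and 0 lower, where 6.82% of the 7404 genes tested were called higher and 15.7% lower. Mef2a was 2.21-fold (1.90 to 2.57) and Mef2c 2.39-fold (2.18 to 2.61) higher in the 32 osteocytes. Against the 179 mature osteoblasts outside those sub-clusters the log2 ratio was 1.15 for Mef2c and 0.97 for Mef2a, which was then not called. The Pth1r ratio was 0.65 (0.55 to 0.77), and the quartiles of single osteocytes were 50.9, 140 and 423 CPM, against 239, 351 and 510 CPM in mature osteoblasts. The Hdac4 ratio was 1.64 (1.03 to 2.48) from 25 UMIs. Of 44 other pathway genes 7 were called higher and 5 lower. Sost, an inhibitor of bone formation that PTH1R signaling lowers and that served to name the class, had 5 UMIs (0.66 CPM) in mature osteoblasts and 66 (114 CPM) in osteocytes. Ppp2cb, a catalytic subunit of protein phosphatase 2A, went from 44.5 to 129 CPM and Sik2 from 11.2 to 25.9 CPM, the latter from 15 UMIs. Pde4a went from 5.38 to 17.3 CPM from 10 UMIs, and Adcy6 from 14.2 CPM to 1 UMI.

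**Figure D4:**
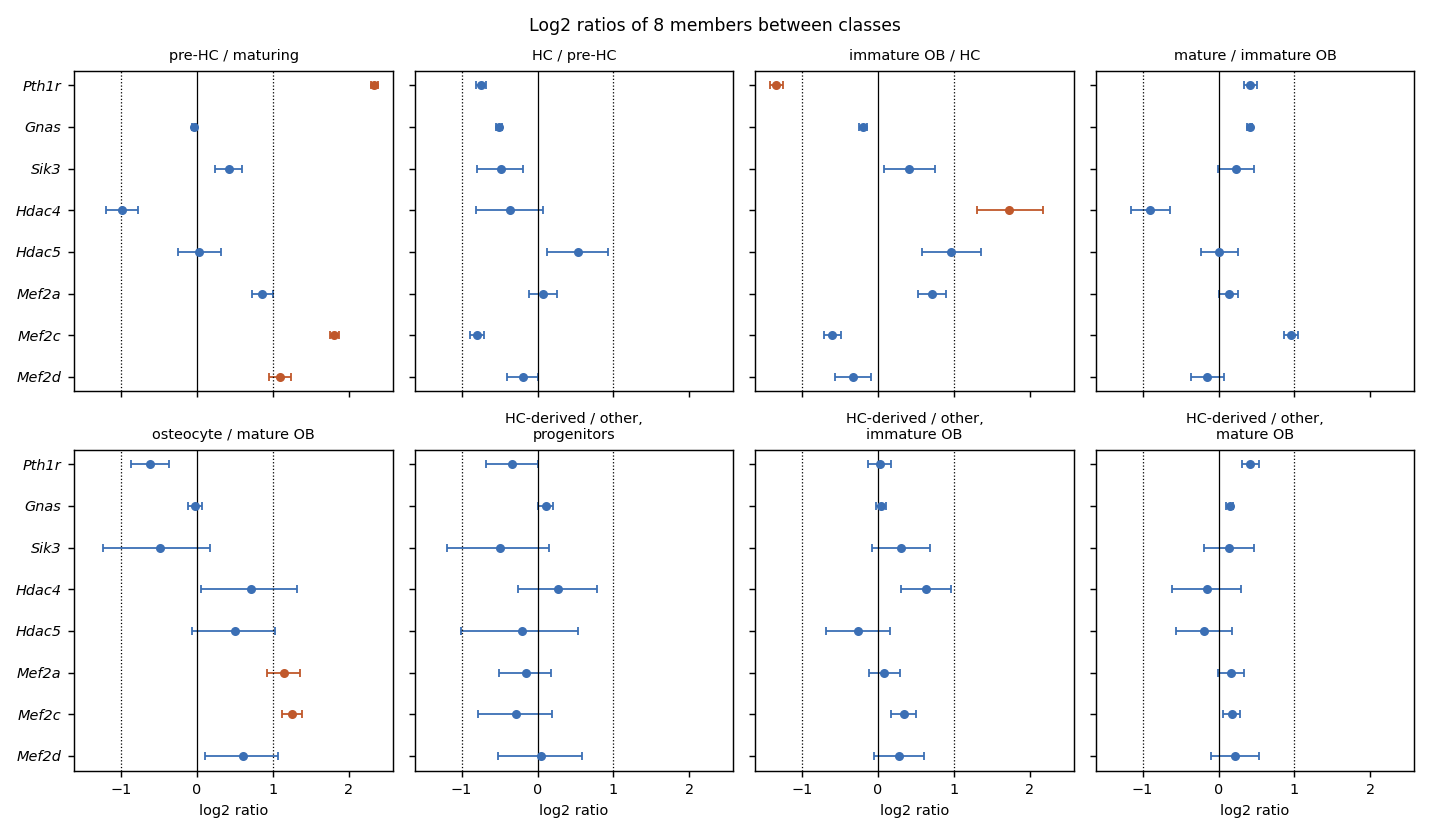
Log2 ratios (horizontal axis) of the 8 members with at least 10 CPM in 8 pairs of classes, with exact 95% counting intervals. Orange points passed the 2-fold limit (dotted lines), and blue points did not. From maturing chondrocytes to pre-HCs, Pth1r, Mef2c and Mef2d passed it with 2.34, 1.81 and 1.09, and none passed it between HC-derived and other cells.

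The last comparison asked whether osteoblasts of HC origin differ in these genes from other osteoblasts of the same class, where origin and the loss of 1 Irx3 copy cannot be told apart. No member was called in any of the 3 classes. The shares of all genes called higher and lower were 3.02% and 4.61% of 8771 in osteo-progenitors, 2.12% and 2.68% of 8478 in immature osteoblasts, and 1.05% and 1.7% of 7220 in mature osteoblasts. Pth1r stood at 133 CPM in 55 HC-derived and 168 CPM in 217 other osteo-progenitors, a ratio of 0.79 (0.62 to 1.003). In immature osteoblasts it was 283 CPM in 104 HC-derived and 279 CPM in 405 other cells, a ratio of 1.01 (0.92 to 1.12), which changed direction in 7 of 12 alternatives.

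In mature osteoblasts Pth1r was 449 CPM in 117 HC-derived and 336 CPM in 243 other cells, a ratio of 1.34 (1.24 to 1.44). Its log2 ratio was positive in all 13 alternatives, from 0.26 without the sub-clusters led by genes of other cells (53 and 126 cells) to 0.51. Gnas and Mef2c were also above 1 there, with ratios of 1.11 (1.07 to 1.14) and 1.13 (1.05 to 1.21), and the median over all genes tested was 0.12 on the log2 scale. Hdac4 differed in immature osteoblasts, with 66.6 CPM in HC-derived and 42.8 CPM in other cells, a ratio of 1.56 (1.24 to 1.95), and its log2 ratio ran from 0.52 to 0.78 over 12 alternatives. In mature osteoblasts the Hdac4 ratio was 0.90 (0.66 to 1.22), which changed direction in 6 of 13. Mef2c in immature osteoblasts had a ratio of 1.26 (1.13 to 1.42), which changed direction in 5 of 12 alternatives. Median depths were 13026.5 UMIs in HC-derived and 11240 in other immature osteoblasts, and 18329 and 19229 in mature ones. All these cells come from 1 mouse, so that differences between HC-derived and other cells have no estimate of their spread between animals.

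Pth1r and Mmp14 were followed in the same cells, since the protease acts on the receptor in the study's question. In thinned cells both were found in 48.1% (41.9 to 54.3) of osteo-progenitors, 55.6% (51.1 to 60.04) of immature and 43.6% (38.4 to 48.9) of mature osteoblasts. The products of the single shares were 45.3%, 57.5% and 43.5%. Each lay within the interval of the joint share, which does not test whether the 2 transcripts are independent. Mmp14 was found in 91.4% of osteo-progenitors with Pth1r and in 80.0% of those without it. The same shares were 84.7% and 93.0% in immature and 54.9% and 54.1% in mature osteoblasts. The gene that was missing changed with the stage. Pth1r was the rarer transcript in osteo-progenitors (52.7%, against 86.0% for Mmp14), and Mmp14 in mature osteoblasts (54.7%, against 79.4% for Pth1r). The mature shares include the 181 cells of sub-clusters led by genes of other cells, and were not counted without them.

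Pre-HCs showed the widest gap, with Pth1r in 92.8% and Mmp14 in 12.5% of cells, and 0.48% of red blood cells held both. By origin, both were found in 48.5% (38.6 to 58.6) of HC-derived and 57.5% (52.4 to 62.4) of other immature osteoblasts, and in 38.5% (29.6 to 47.9) and 46.1% (39.7 to 52.6) of mature ones. These intervals overlapped. The Mmp14 level was 511 CPM in HC-derived and 667 CPM in other immature osteoblasts, and 147 and 181 CPM in mature ones. Both differences were within the 2-fold limit, and the Mmp14 ratios were not computed in the alternatives. The mature values include the cells of sub-clusters led by genes of other cells. As a share of thinned cells, Mmp14 was found in 83.5% of HC-derived and 88.6% of other immature osteoblasts. These shares were 46.2% and 58.8% in mature osteoblasts and 87.3% and 85.6% in osteo-progenitors. Osteo-progenitors had 100% and 90.3% without thinning, and no contrast between the classes is drawn from these shares. Both transcripts were found in 49.1% (35.4 to 62.9) of HC-derived and 47.8% (40.9 to 54.8) of other osteo-progenitors. Without thinning, the joint shares were 83.7% and 84.0% in immature and 86.3% and 89.3% in mature osteoblasts.

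**Figure D5:**
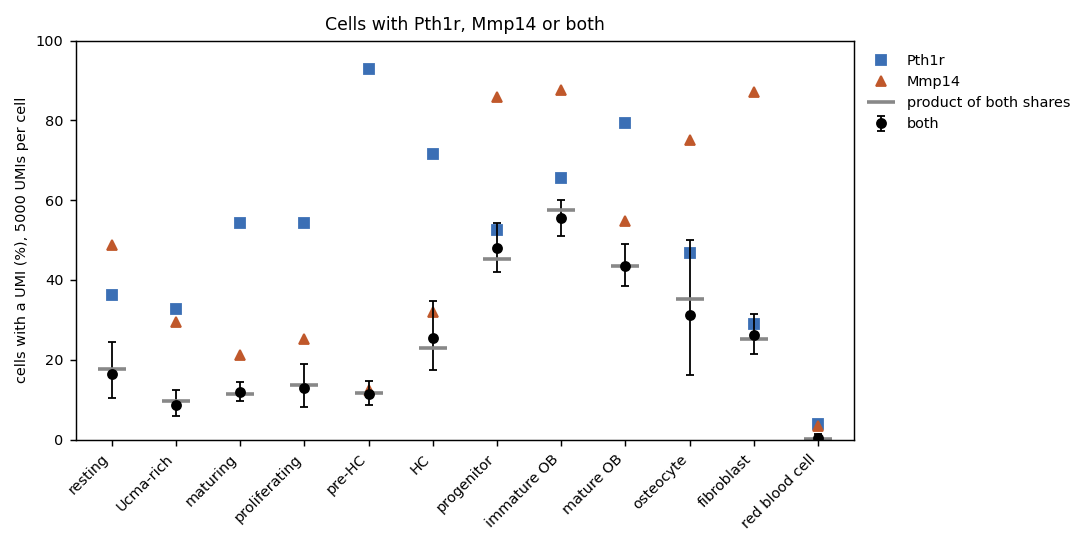
Share of cells with a UMI (vertical axis, percent of cells thinned to 5000 UMIs) for Pth1r (squares), Mmp14 (triangles) and both (black points with exact 95% intervals) in 11 classes and in red blood cells as background. Grey bars are the product of both shares, and the shares with both are 11.4% in pre-HCs, 55.6% in immature osteoblasts and 0.48% in red blood cells.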

How the data were processed

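Single-cell RNA sequencing of 1 P6 tibia library was used. A P56 sample was not analysed here. The authors deposited counts of UMIs per gene and barcode, which Cell Ranger v3.1.0 gave against mm10 plus the reporter sequences and which were not normalized, and a second count matrix of exogenous sequences that was joined by barcode. Coordinates were taken from GENCODE M21, and for the counts the release was not given in the sources used here.

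Cells with at least 1600 genes, as in the study, at most 10% mitochondrial and 50% ribosomal protein UMIs were kept. For clustering, each cell was scaled to 10000 and logs were taken. Leiden clustering (scanpy 1.11.5) was run at resolution 1 with 20 neighbours on 30 components of 2000 variable genes, without the members, the genes of the pathway lists other than Sox9, and Mmp14. Clusters took the list of the 15 marker lists with most markers among their 10 leading genes. The naming rule was completed after clusters had been seen. Osteocytes were a sub-cluster of the mature osteoblast cluster, and 181 of the other 360 cells lay in sub-clusters led by markers of other cell types; these were left out in an alternative chosen after seeing the data. Scrublet marked 588 of 14181 barcodes, and those that passed the filters were kept. Depths ranged from 9890.5 UMIs per cell (median) in fibroblasts to 33060 in HCs among the 11 stage classes.

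CPM intervals are exact Poisson, shares exact Clopper-Pearson and ratios exact conditional intervals, computed with scipy 1.17.1 and checked on simulated data. They cover counting error only. HC-derived means more than 14 WPRE UMIs. For thinned shares, cells under 5000 UMIs were left out. In ratios a class at 0 was set to 3 counts. Named genes are the members, Mmp14, Ihh, Col10a1 and Ucma, up to 3 genes of each pathway list with at least 10 CPM in a stage and the largest log2 ratio in a comparison of stages, genes whose count or absence is given, and the 3 genes most like Pthlh, Pth1r and Mef2c among those with at least 50 CPM (Pthlh 5 CPM) in a class. Other pathway genes, among them Prkar2b, Ptgs2, and Zbtb20, Gli3 and Tnfsf11 in further comparisons, were named after their values were seen. The members and lists were chosen with earlier results of these data known. Alternatives were other limits on genes, mitochondrial UMIs and doublets, other clusterings, 2 other scalings and 3 other definitions of HC-derived cells.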

Additional observations from a re-analysis of the deposited data

How the results depend on the processing

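The number of members called was 2 for immature osteoblasts over HCs, and 3 at resolution 0.6 (Mef2c added) and with only HCs above 14 WPRE UMIs (Hdac5 added). For pre-HCs over maturing chondrocytes it was 3, 5 with the Ihh-led cluster alone and 2 with the other alone (both chosen after seeing the data), 4 with up to 5% mitochondrial UMIs and 2 at resolution 1.5; with the mean of the cells' CPM and with at least 2000 genes it was 3 with Hdac4 in place of Mef2d. For HCs over pre-HCs it was 0, and 1 with up to 5% mitochondrial UMIs (Mef2c, lower). For mature over immature osteoblasts it was 0, and 1 (Mef2c) with the mean of the cells' CPM, without the 20 most abundant genes, with at least 2000 genes, with up to 5% or 20% mitochondrial UMIs, without doublets, at resolutions 0.6 and 1.5, and without the sub-clusters of mature osteoblasts led by genes of other cells (chosen after seeing the data). For osteocytes it was 2, and 1 at resolution 1.5 and without those sub-clusters, where Mef2a was not called. For HC-derived cells it was 0, and 1 (Mef2c, lower in osteo-progenitors) with at least 2000 genes. The shares of all genes called were not computed for the alternatives. Pth1r was found in 92.8% of pre-HCs, in 83.8% when thinned to 3000 UMIs and in 99.4% without thinning, and Pth1r with Mmp14 in 55.6% of immature osteoblasts, or 83.9% without thinning. Over 624 ratios of members in alternatives, 600 kept the call and 576 the sign. Most of these ratios were within the 2-fold limit at first. Of the 64 whose ratio was called at first, 58 kept the call. A member kept its highest class in 59 of 70 alternatives. No called ratio reversed. Some alternatives gave no value for some classes. No HCs were named with at least 2000 genes or 3000 variable genes, no maturing chondrocytes with 3000 variable genes, no osteocytes with up to 5% mitochondrial UMIs, no osteo-progenitors with up to 5% or 20% or at resolution 0.6, and no resting chondrocytes with at least 2000 genes or at resolution 0.6. Ucma-rich chondrocytes were not named with up to 5% or 20% mitochondrial UMIs or with 3000 variable genes. Proliferating chondrocytes were not named with up to 20%, without doublets or at resolution 0.6. Leaving out a replicate was not possible. No paired analysis was possible because there is 1 library and the labels give no groups to compare. Pthlh was counted 204 times, and its level in resting chondrocytes ran from 8.01 to 58.8 CPM over the other filters and clusterings.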
